A study of Mus musculus with 4 samples.

Results

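miR-182, miR-183 and miR-96 are 3 microRNAs cut from neighbouring hairpins that are transcribed together as 1 primary RNA. Each hairpin can release a mature miRNA from its 5′ side and a usually short-lived partner from its 3′ side, the star arm. The members here were chosen by name. All arms named mmu-miR-182, mmu-miR-183 or mmu-miR-96, with or without the star, were taken, so that mmu-miR-183* is the star arm of mmu-miR-183. All 6 such names had reads, of 628 arm names in the tables. The names were picked with the read counts of these libraries already known, so the abundance values below are given as a description. The star arms of miR-182 and miR-96 had 7 and 3 reads over all libraries, which was too few for a fold change.

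The libraries are of small RNA from NIH-3T3, a long-established line of mouse embryo fibroblasts, which was seeded at equal cell number and grown until confluent. The control group was untreated, and the other group received 500 nM thapsigargin in the medium for 24 h. Thapsigargin is an inhibitor of SERCA, the calcium pump of the endoplasmic reticulum (ER), and emptying that store brings on ER stress. Each group held 2 libraries, and nothing in the labels says that the replicates came from separate cultures, so p-values measure only the spread between these libraries, which may be technical. Between 2685965 and 5570971 reads per library were assigned to 1 arm, and miR-10b alone took 35.7% to 56.6% of them. Reads of control replicate 1 began 1 base further upstream than those of the other libraries, and the correlation of same-numbered libraries is given with the limits at the end.

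The 3 miRNAs are best known from sensory organs. They are abundant in photoreceptors and in the hair cells of the inner ear, and changes in the miR-96 seed cause hearing loss in mice and humans. The seed, bases 2 to 8 of the mature miRNA, is the stretch that pairs with target mRNAs. In other tissues miR-182 and miR-96 are known to repress FOXO transcription factors. miR-96 is also one of the miRNAs reported to be cut by IRE1α, a sensor of ER stress, which lifts its repression of caspase-2.

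The sequences show how closely the miRNAs are related and where they differ. They are RefSeq sequences (GRCm38.p6, chromosome 6, minus strand), written from 5′ to 3′ with the seed in capitals. All 6 names matched an entry. The 3 mature arms and the one star arm with enough reads were as follows.
miR-182: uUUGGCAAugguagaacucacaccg
miR-183: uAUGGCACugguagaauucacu
miR-96: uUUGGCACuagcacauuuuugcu
miR-183 star arm: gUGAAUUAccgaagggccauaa

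No pair of the 3 mature arms has the same seed. miR-182 and miR-96 have 6 of 7 seed bases in common and differ by A8C, the miR-182 base first, with positions counted from the 5′ end of the mature miRNA. miR-183 and miR-96 also have 6 of 7 in common and differ by A2U, the miR-183 base first. miR-182 and miR-183 have 5 of 7 seed bases in common, but along their first 22 bases they match at 18 positions, more than either does with miR-96 (12 of 23 for miR-182 and 13 of 22 for miR-183). Sorted by start position in RefSeq, the genes come in the order Mir182, Mir96, Mir183, and no other gene starts between them. The nearest starts on either side are those of the long non-coding RNA genes Mirc35hg and BB283400. Gene ends were not compared, so whether Mirc35hg extends over the hairpins was not tested. No coordinates are given, since the submitters' processing notes name another mouse build.

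miR-182 made up most of the reads of the cluster. Levels are given as scaled CPM, the count relative to the library's arm reads after correction for composition. In CPM, miR-182 stood at 7519 and 6156 in control replicates 1 and 2 and at 14141 and 13300 in thapsigargin replicates 1 and 2. The raw counts were 40693, 20128, 87572 and 25449 in the same order. Both thapsigargin libraries lay above both control libraries in scaled CPM. Without the correction for composition, miR-182 took 1.06% and 0.554% of arm reads in controls and 1.57% and 0.947% with thapsigargin. On that scale thapsigargin replicate 2 lay below control replicate 1, so the groups overlapped. The group means were 6837 ± 964 CPM (SD, n = 2) and 13720 ± 595 CPM, a log2 fold change of 1.0 (SE 0.44). Among the 310 arms tested, 54 were separated in scaled CPM with thapsigargin higher, which is 17.4%, and 50 with thapsigargin lower, which is 16.1%. The summed level of the 7 fibroblast miRNAs found was also higher with thapsigargin in scaled CPM, at 226781 and 279827 against 177270 and 153373 in controls. It took 959402 of 3857002 arm reads in control replicate 1 and 535453 of 2685965 in thapsigargin replicate 2. Without the correction for composition it was thus lower in that thapsigargin library than in control replicate 1, and the groups overlapped. The part of this sum in the miR-182 difference was not tested. That sum was mostly miR-143 (log2 fold change 0.84, SE 0.48) and miR-22 (0.35, SE 0.50), and miR-22 in thapsigargin replicate 1, at 56800 CPM, was below both controls. The log2 fold changes of miR-199a-5p, miR-214 and miR-145 were -0.29, -0.32 and 0.08. In bulk RNA of this kind, fewer cells with a miRNA and less of it per cell cannot be told apart. By scaled CPM miR-182 ranked between 10 and 15 among the tested arms in every library.

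miR-183, cut from the same primary RNA, did not follow miR-182. It stood at 690 CPM in control replicate 1, 4505 CPM in control replicate 2, 581 CPM in thapsigargin replicate 1 and 1359 CPM in thapsigargin replicate 2. The raw counts were 3732, 14731, 3595 and 2601. Control replicate 2 was far above the other 3 libraries, and the groups overlapped. The control libraries differed 6.53-fold from each other, and the thapsigargin libraries 2.34-fold. The group means were 2597 ± 2698 CPM (SD, n = 2) for controls and 970 ± 551 CPM for thapsigargin, so the control SD was larger than the control mean. The log2 fold change of -1.42 (SE 0.87) rested on control replicate 2, and without that library it was 0.44. In the authors' deposited table, the log2 fold change was -1.48 for miR-183, with a p-value of 0.0297 and an adjusted p of 0.889. The same deposited table gave 0.93 for miR-182 and -0.26 for miR-96, with p-values of 0.168 and 0.709.

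miR-96, which lies between the other hairpins, was the rarest of the mature arms. It stood at 43.4 and 78.3 CPM in controls and at 37.1 and 70.6 CPM with thapsigargin, from 235, 256, 230 and 135 reads. In both groups replicate 2 was the higher library, and the groups overlapped. The means were 60.9 ± 24.7 CPM (SD, n = 2) and 53.8 ± 23.6 CPM. The log2 fold change of -0.18 (SE 0.57) was smaller than its error, and it was 0.26 without control replicate 2 and 0.18 without thapsigargin replicate 1. miR-96 ranked between 119 and 151 among the tested arms, against 20 to 57 for miR-183.

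The miR-183 star arm was at the edge of detection. It had 44, 36, 48 and 20 reads, or 8.13 and 11.01 CPM in controls and 7.75 and 10.5 CPM with thapsigargin. As with miR-183 and miR-96, replicate 2 was the higher library in each group in scaled CPM, while for miR-182 replicate 2 was the lower one. For the star arm this order came from the correction for composition. Its uncorrected share of arm reads was 0.00114% and 0.000991% in control replicates 1 and 2. With thapsigargin it was 0.000862% and 0.000745%, so replicate 1 was the higher library in each group. The log2 fold change of the star arm was -0.08 (SE 0.59). It was 0.11 without control replicate 2 and 0.09 without thapsigargin replicate 1.

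**Figure D1:**
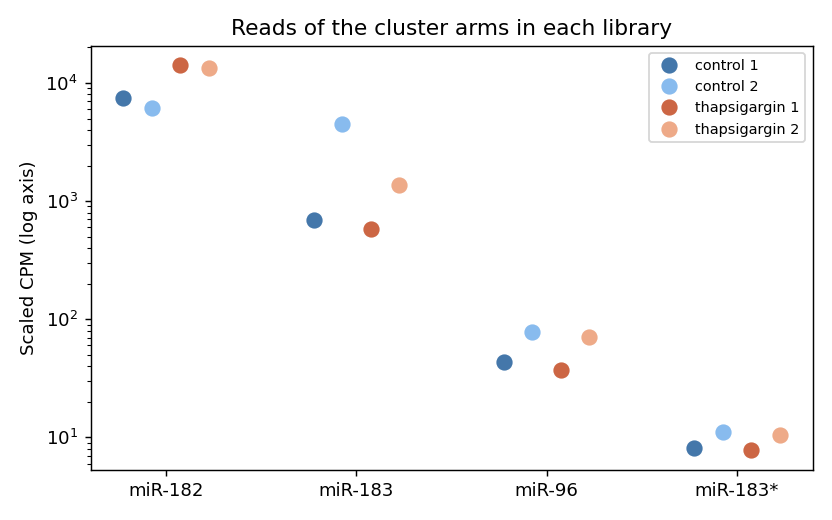
Scaled CPM (log axis) of the 4 arms that were tested, with 1 point for each library. miR-182 lies at 6156 and 7519 in the controls and at 13300 and 14141 with thapsigargin, while miR-183 in control replicate 2 stands at 4505, above its other 3 libraries.

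edgeR's quasi-likelihood test over all arms called 0 of 310 at an adjusted p of 0.05, so the share called was 0%. At an unadjusted p of 0.05 it held 12 arms, and DESeq2 and limma-voom also called 0, with 14 and 13 arms at an unadjusted p of 0.05. All 4 tested members were thus uncalled, as was every other arm. The median log2 fold change of all tested arms was -0.01, and their median distance from 0 was 0.40.

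**Figure D2:**
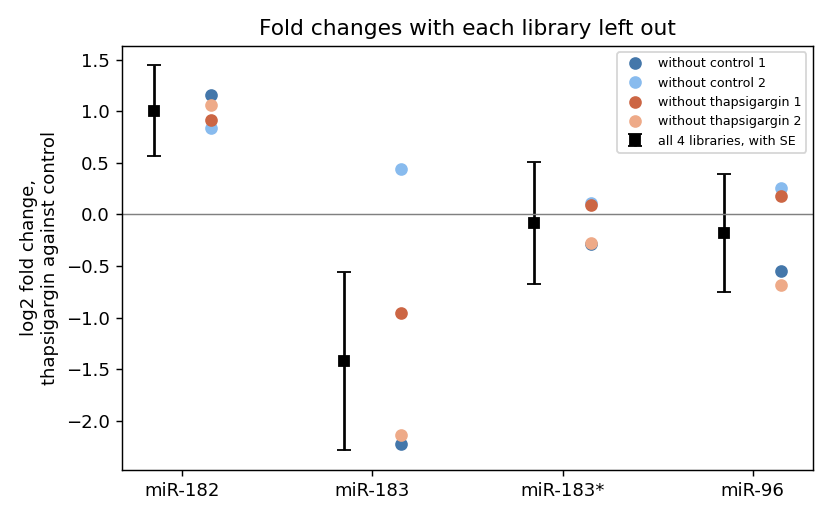
Log2 fold change of thapsigargin against control for the 4 tested arms: squares with bars give the value from all 4 libraries with its SE, and circles give the value with 1 library left out. miR-182 stays between 0.83 and 1.16, while miR-183 runs from -2.22 to 0.44 and is above 0 without control replicate 2.

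Setting the members against each other inside a library needs no scaling between libraries. There were 10.9 miR-182 reads for each miR-183 read in control replicate 1 and 1.37 in control replicate 2. With thapsigargin the ratio was 24.4 in replicate 1 and 9.78 in replicate 2. Of the reads of the 3 mature arms, miR-183 made up 42.0% in control replicate 2 and 8.36%, 3.93% and 9.23% in control replicate 1 and thapsigargin replicates 1 and 2. The log2 ratio averaged 1.95 ± 2.12 (SD, n = 2) in controls and 3.95 ± 0.93 with thapsigargin. The difference of 2.0 between the groups was larger than the pooled replicate SD of 1.64 but smaller than the control SD of 2.12. Without control replicate 2 the difference was 0.50. Measured against miR-96, miR-183 stood at 15.9, 57.5, 15.6 and 19.3 reads per read in the controls and then the thapsigargin libraries, replicate 1 first. It was thus high in control replicate 2 against both other hairpins. miR-182 stood at 173, 78.6, 381 and 189 reads per miR-96 read in the same order, with the lowest value in control replicate 2 and the highest in thapsigargin replicate 1.

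The same ratio was taken for pairs of miRNAs from 11 other co-transcribed clusters, 33 pairs in all. The miR-17 to miR-92a cluster gives more of these pairs than any other cluster, so it weighs most on the medians. Pairs within a cluster share miRNAs and are not independent. Some of these miRNAs also have a copy at another locus, which this ratio does not separate. Across the 4 libraries the log2 ratio of miR-182 to miR-183 ranged over 4.16, the widest of the 36 pairs compared. This rested on control replicate 2: without it the range was 1.32, rank 8 of the 36, and the widest was miR-106b to miR-25 at 2.88. With all libraries, the next after miR-182 to miR-183 was miR-99b to let-7e at 2.98, and the narrowest was miR-19b to miR-92a at 0.28, with a median of 1.15 over the pairs of the other clusters. The control libraries alone differed by 3.0 for miR-182 to miR-183, against a median of 0.50 and at most 2.61 in the other clusters, the latter for miR-191 to miR-425. The pair miR-322 to miR-503 gave no ratio, because a library had no miR-503 read. These ranges were given no test.

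**Figure D3:**
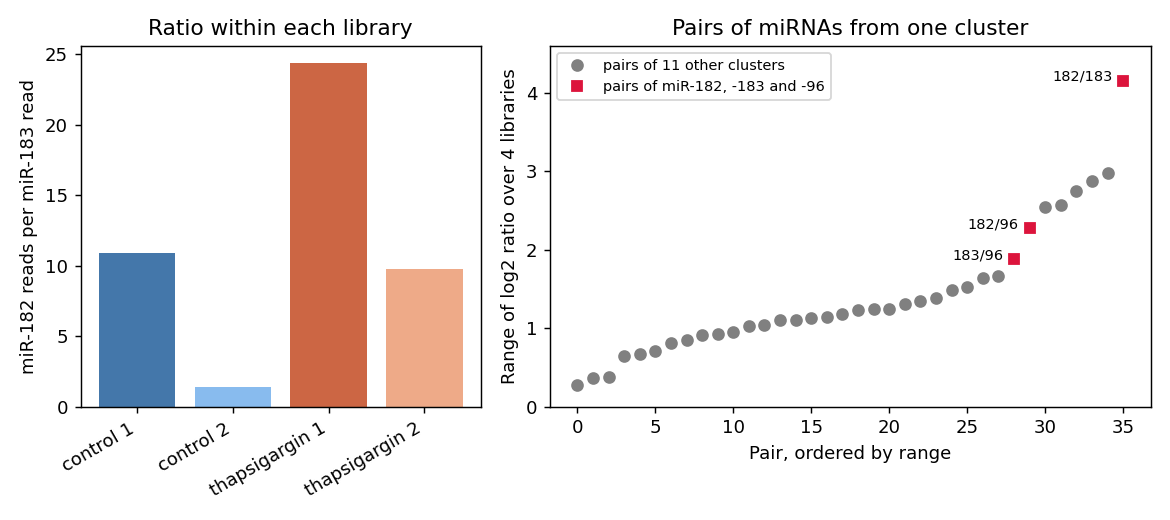
Left, miR-182 reads per miR-183 read in each library. Right, the range over 4 libraries of the log2 ratio for each of 36 pairs of miRNAs from 1 cluster, ordered by that range. The bars run from 1.37 to 24.4, and the miR-182 to miR-183 pair has the widest range at 4.16, which falls to 1.32 and rank 8 without control replicate 2.

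Across arms with a mean of at least 50 reads, miR-183 had the largest difference between the control libraries. Control replicate 2 was 2.71 higher on the log2 CPM scale, rank 1 of 197 arms, where the median size of that difference was 0.47. For the thapsigargin libraries its difference of 1.23 ranked 41. miR-182 had control and thapsigargin differences of -0.29 and -0.09, at ranks 130 and 178.

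The arms with the most similar pattern differed between miR-182 and miR-183. Likeness was measured as the distance between centred log2 CPM values over the 4 libraries, among 196 other arms with a mean of at least 50 reads. Nearest to miR-182 were miR-1957 (distance 0.08), miR-143, an abundant fibroblast and smooth-muscle miRNA (0.18), and miR-1843-5p (0.25). miR-1957 had only 53 and 26 reads in controls and 124 and 36 with thapsigargin, so counting error weighs on its distance. Nearest to miR-183 were miR-191 (0.40), miR-10b* (0.70) and miR-21* (0.75). The counts of miR-191 were 25879, 69420, 20741 and 15918, so its highest count was also in control replicate 2. From miR-182, miR-183 was at distance 3.06 and ranked 194 of 196, while from miR-183, miR-96 ranked 14. These distances rest on 4 libraries and are descriptive.

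The individual reads show where each miRNA began and ended. Positions are counted from base 1 of the RefSeq mature sequence. In control replicate 1, 98.6% of miR-182 reads began at base 1 (Wilson 95% interval 98.5% to 98.8%). In control replicate 2 and thapsigargin replicates 1 and 2, 99.3%, 99.2% and 99.2% began at base 2. The corresponding reads of miR-96 began at base 1 in 99.6% of cases in control replicate 1, and at base 2 in 100%, 99.6% and 99.3% in the other libraries. The first base was thus missing in 3 of the 4 libraries, the other control among them. The commonest miR-182 read is shown for both kinds of library, with the RefSeq seed in capitals, since the missing base is the one just before the seed.
miR-182, control replicate 1: tTTGGCAAtggtagaactcacac
miR-182, other libraries: TTGGCAAtggtagaactcacac
miR-96, control replicate 1: tTTGGCACtagcacatttttgct
miR-96, other libraries: TTGGCACtagcacatttttgct

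The first miR-182 read took 58.5% of the arm in control replicate 1, and the other took 66.6%, 57.4% and 66.9% in control replicate 2 and thapsigargin replicates 1 and 2. Both miR-182 reads stopped at base 23, short of base 25 where the RefSeq sequence ends. The commonest miR-96 reads ended at its last RefSeq base, 23.

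miR-183 differed from its neighbours in having a pair of 5′ ends in every library. In control replicate 1, 59.9% of its reads began at base 1 and 38.6% at base 2. In the other 3 libraries the same pair lay 1 base further on, with 61.3%, 60.8% and 63.9% at base 2 and 38.6%, 39.2% and 35.9% at base 3. Of the reads with either end, the shorter form made up 39.2% (Wilson 95% interval 37.7% to 40.8%) in control replicate 1 and 38.6% (37.8% to 39.4%) in control replicate 2. With thapsigargin it made up 39.2% (37.6% to 40.8%) in replicate 1 and 36.0% (34.2% to 37.9%) in replicate 2. The balance was thus close to the same in control replicate 2, where miR-183 was most abundant, as in control replicate 1. For miR-182, the form 1 base shorter made up 0.179% to 0.319% of the reads with either end, and for miR-96 there were 0 or 1 such reads in each library.

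The miR-183 forms also ended differently, as their commonest reads show. Capitals again mark the RefSeq seed, of which the shorter form in the last line lacks the first base.
miR-183 longer form, control replicate 1: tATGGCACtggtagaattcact
miR-183 shorter form, control replicate 1: ATGGCACtggtagaattcactg
miR-183 longer form, other libraries: ATGGCACtggtagaattcact
miR-183 shorter form, other libraries: TGGCACtggtagaattcactg

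These reads numbered 1844 and 991 in control replicate 1, 8380 and 3741 in control replicate 2, 1850 and 880 in thapsigargin replicate 1, and 1514 and 628 in thapsigargin replicate 2. The longer form ended at base 22 in 85.1%, 94.97%, 86.9% and 93.6% of its templated reads in the controls and then the thapsigargin libraries, replicate 1 first, and in no such read at base 23. The shorter form ended at base 23 in 70.4%, 67.4%, 63.8% and 68.9% of its templated reads. The commonest read of each form therefore had the same length, with both ends moved by 1 base. A read counts here as templated when every base matches the RefSeq hairpin.

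**Figure D4:**
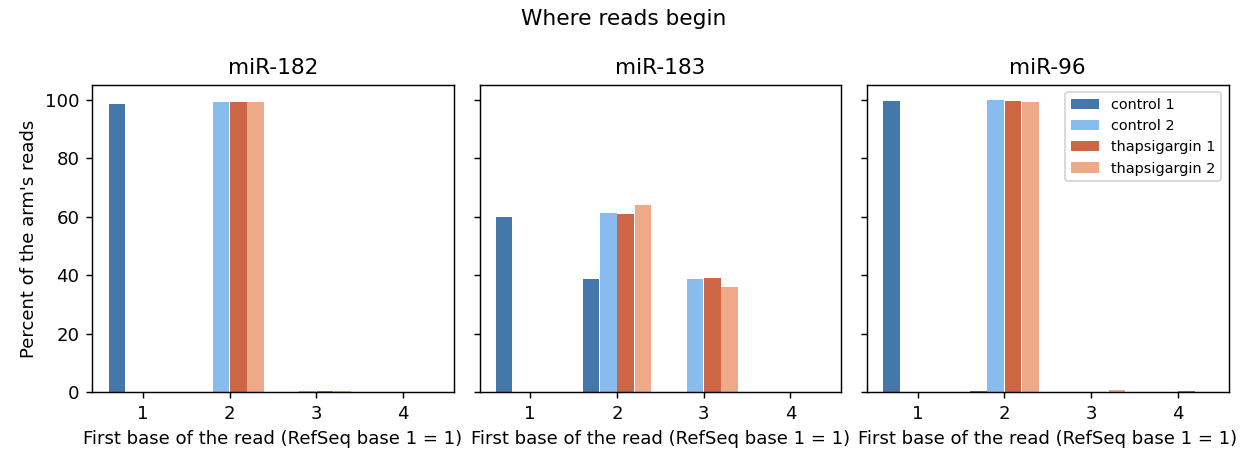
Percent of each arm's reads that begin at bases 1 to 4 of the RefSeq mature sequence, with 1 bar for each library. Reads of miR-182 and miR-96 begin almost all at base 1 in control replicate 1 and at base 2 in the other libraries, while miR-183 reads divide between neighbouring starts, at 59.9% and 38.6% in control replicate 1.

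At the 3′ end, miR-182 and the longer miR-183 form grouped by replicate number, while the shorter miR-183 form and miR-96 did not at their main end. Of templated miR-182 reads, 60.7% and 59.6% ended at base 23 in control and thapsigargin replicates 1, against 68.7% and 69.2% in control and thapsigargin replicates 2. Reads ending at base 21 made up 15.4% and 14.4% in the replicate 1 libraries and 11.6% and 9.54% in the replicate 2 libraries. The longer miR-183 form showed the same grouping, with 12.3% and 12.5% ending at base 21 in the replicate 1 libraries against 4.95% and 6.30% in the replicate 2 libraries. miR-10b, the most abundant arm, took 35.7% and 41.7% of arm reads in the replicate 1 libraries and 56.6% and 53.3% in the replicate 2 libraries. Its part in these 3′ ends was not tested. The shorter miR-183 form ended at base 23 in 70.4% and 63.8% in the replicate 1 libraries, with the replicate 2 libraries between them at 67.4% and 68.9%. At base 21 it grouped as well, with 4.90% and 5.08% in the replicate 1 libraries against 2.27% and 1.98% in the replicate 2 libraries. For miR-96, 82.8% and 87.2% of templated reads ended at base 23 in the replicate 1 libraries and 85.7% and 88.5% in the replicate 2 libraries.

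**Figure D5:**
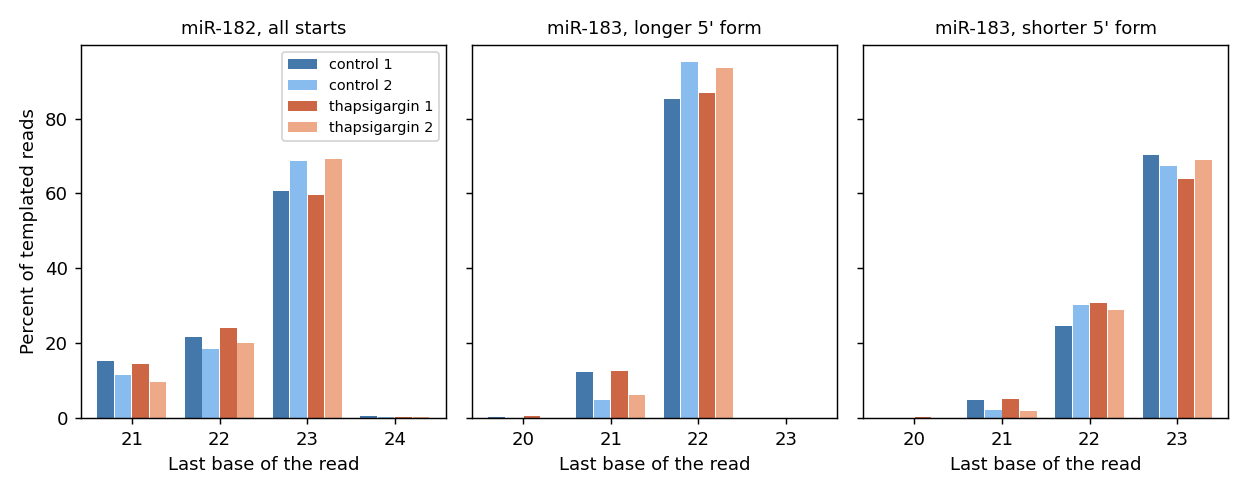
Percent of templated reads by their last base, counted on the RefSeq mature sequence, for miR-182 and for the longer and shorter 5′ forms of miR-183, with 1 bar for each library. The bars for miR-182 at base 23 stand at 60.7% and 59.6% in the replicate 1 libraries and at 68.7% and 69.2% in the replicate 2 libraries.

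Few reads of the mature arms ended in bases that the hairpin does not encode. Reads whose last 1 to 3 bases departed from the hairpin made up 1.68%, 1.04%, 1.83% and 1.61% of miR-182 reads in the controls and then the thapsigargin libraries, replicate 1 first. For miR-183 the shares were 0.643%, 0.509%, 0.584% and 0.577%.

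The miR-183 star arm was different. Of its 148 reads, 111 ran 1 base past the RefSeq end, and that base was T in 43, A in 34, C in 28 and G in 6. Only A matches the hairpin at that position. T or C reads made up 45.5%, 47.2%, 50% and 50% of the star reads in the controls and then the thapsigargin libraries, replicate 1 first, and 48.0% over all libraries (exact 95% interval 39.7% to 56.3%). The commonest star reads with T are shown for both kinds of library, with the added base in capitals.
miR-183 star arm, control replicate 1: tgaattaccgaagggccataaT
miR-183 star arm, thapsigargin replicate 1: gaattaccgaagggccataaT

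The star read with T was found 13 times in control replicate 1 and 15 times in thapsigargin replicate 1. In control replicate 2 the commonest star read ended in C instead, with 10 reads. All but 1 of the star reads in control replicate 1 began at base 2. In the other libraries they began at base 3, but for 1 read in thapsigargin replicate 1, the same offset of 1 base as in the mature arms.

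The balance between arms was strongly to the mature side in all 3 hairpins. The star arm made up 1.17% of miR-183 hairpin reads (exact 95% interval 0.848% to 1.56%) in control replicate 1, 0.244% (0.171% to 0.337%) in control replicate 2, 1.32% (0.973% to 1.74%) in thapsigargin replicate 1 and 0.763% (0.467% to 1.18%) in thapsigargin replicate 2. The share was lowest in control replicate 2, where in scaled CPM the mature arm was 6.53-fold above control replicate 1 and the star arm 1.35-fold. In scaled CPM the star arm was also at its highest there of the 4 libraries. As an uncorrected share of arm reads it was highest in control replicate 1, at 0.00114%. The group means were 0.705 ± 0.652% (SD, n = 2) and 1.04 ± 0.392%, and the difference of 0.336 percentage points was smaller than the pooled replicate SD of 0.538. Without control replicate 2 the difference was -0.12 percentage points. The miR-182 star arm had 2, 2, 1 and 2 reads, at most 0.00994% of the hairpin's reads. The miR-96 star arm had 2 and 1 reads in the replicate 1 libraries and 0 of 256 and 0 of 135 hairpin reads in control and thapsigargin replicates 2, which allow shares of up to 1.17% and 2.22% at 3 counts of the total, or 1.43% and 2.70% by the exact 95% interval. Intervals and limits of this kind cover counting error only.

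Reads that the authors had assigned to a hairpin rather than to an arm were rare. The miR-183 hairpin had 18, 19, 32 and 17 of them in the controls and then the thapsigargin libraries, replicate 1 first, all beginning inside the mature arm between bases 7 and 9. The miR-182 hairpin had 19 in control replicate 1 and 0 in the other libraries, and the miR-96 hairpin had none. Reads that matched several miRNAs and included miR-182 numbered 3, all in control replicate 1.

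The miRNAs reported as cut by IRE1α, to which miR-96 belongs, had 4 tested members, of which 0 passed the test. Their log2 fold changes were -0.17 (SE 0.49) for miR-17, a growth-promoting miRNA, -0.07 (SE 0.53) for miR-34a, a p53 target, -0.18 for miR-96 and -0.20 (SE 0.70) for miR-125b-5p. Each lay within its error of 0, with a median of -0.18 beside -0.01 for all tested arms. All 4 were below 0 under 3 scalings. Without control replicate 1 or without thapsigargin replicate 2, 2 of the 4 were above 0, and without either of the other libraries 1 of the 4 was. miR-125b-5p had 25250 and 26340 reads in the replicate 1 libraries against 5668 and 2552 in the replicate 2 libraries.

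The list of miRNAs known from sensory organs holds the 3 mature members and 8 other names. Of the others 5 were tested, 0 passed the test, and 3 had log2 fold changes above 0, with a median of 0.91 beside -0.01 for all tested arms. These were miR-9 and its star arm miR-9*, the co-transcribed miR-181a and miR-181b, and miR-184, so they are not independent. The log2 fold changes were 0.91 for miR-9, 1.30 for miR-181b, -0.19 for miR-9* and -0.64 for miR-184. miR-181b stood at 2575 CPM in thapsigargin replicate 2 and at 360 CPM in thapsigargin replicate 1, the latter below both controls. Scaled by total reads the median was 0.48, where that of all arms was -0.36. Without control replicate 1, 5 of the 5 were above 0 with a median of 1.24, and without each of the other libraries 3 were, with medians of 0.32 (without thapsigargin replicate 2) to 0.87. miR-124, a neuronal miRNA, had 1 or 2 reads in each library, and miR-204, known from the retinal pigment epithelium, had 1 to 4. The log2 fold change of miR-181a was 1.02 (SE 0.55), with 18486 CPM in thapsigargin replicate 2 and at most 8231 CPM in the other libraries.

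The libraries had the miRNAs of fibroblasts. Of 8 fibroblast names 7 were found, led by miR-143 and miR-22 at 912234 and 351745 reads in thapsigargin replicate 1. All 10 epithelial names had reads, but only miR-192, at 516 to 720 CPM, and miR-194, at 6.27 to 13.5 CPM, passed the filter on low counts. The defining epithelial family of miR-200a, miR-200b, miR-200c, miR-141 and miR-429 had at most 5 reads of any member in a library. The neural and retinal list summed to 62 and 18 reads in controls and 48 and 7 with thapsigargin, mainly from miR-184. The blood list summed to 436, 355, 602 and 180 reads, nearly all from miR-155, with miR-451 at 6 or fewer. Embryonic stem cell, muscle and liver names had at most 4, 2 and 1 reads in a library.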

How the data were processed

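The submitters' processing notes name CASAVA 1.8.1, cutadapt, Bowtie and DESeq 1.4.1, with no settings used here. The authors deposited whole-number counts of each distinct read, split by miRNA arm, the percent of all reads that each value makes up, and a table of log2 fold changes with p-values, per the file headers. Here reads with 1 match were summed to 628 arms. For thapsigargin replicate 2, the counts in a separate mature summary equalled those of its reads for only 15 of 395 names, so all counts came from read tables.

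The main test was that of edgeR 4.0.16 under R 4.3.3 (two-sided quasi-likelihood test, TMM scaling, trended dispersion, robust fit, minimum count 10). The filter kept 310 arms, 4 of the 6 members among them, and left out 2672 reads. Scaling factors were 1.40 and 0.900 in controls and 1.11 and 0.712 with thapsigargin. Adjustment was by Benjamini-Hochberg over all tested arms. The SE is the size of the fold change divided by the square root of F. The fit was run on simulated counts with larger changes than those of the members and no link between same-numbered libraries. That run does not measure how often changes of the size seen here would be called. Reads were placed on RefSeq hairpins without gaps, by the fewest mismatches. Intervals came from scipy 1.17.1.

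Members, lists and tests were chosen with earlier results of these data known. Named miRNAs were the members, the IRE1α list, the 3 nearest arms to miR-182 and miR-183, the 2 most abundant arms of other lists, and the narrowest and widest cluster pairs. miR-124, miR-204, the miR-200 family, miR-451, miR-199a-5p, miR-214 and miR-145 were named after their values were seen. So were miR-9, miR-9*, miR-181b and the pairs miR-191 to miR-425 and miR-106b to miR-25. Results were recomputed with RLE and total-read scaling, with no low-count filter, with DESeq2 1.42.0 and limma-voom (limma 3.58.1), with ambiguous reads included, on the mature table only, without miR-10b, without each library, with a replicate block, and after trimming 1 base from the start of control replicate 1 reads, which dropped 56287 reads under 18 nt. The last of these with the block, the cluster pairs without each library and the sensory list without the members were added after seeing the data.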

Additional observations from a re-analysis of the deposited data

Results flagged for a closer look

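A summary table of mature arms deposited for thapsigargin replicate 2 enters no comparison. It held more reads of the cluster's mature arms than any control library. It gave miR-182 107374 reads, or 29.2% of its total, where control replicates 1 and 2 had 40693 and 20128 and the value was 25449 in the sample's own read table. It gave miR-183 21960 reads, against 3732 and 14731 in the controls and 2601 in the sample's own read table. For miR-96 it gave 267 reads, against 235 and 256 in the controls and 135 in the sample's own read table. The totals differ, so these counts do not compare as shares do. Of the summary's total, miR-183 made up 5.96% and miR-96 0.0725%. Of arm reads in control replicates 1 and 2, miR-182 made up 1.06% and 0.554%, miR-183 0.0968% and 0.405%, and miR-96 0.00609% and 0.00705%.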

How the results depend on the processing

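miR-182 had a log2 fold change above 0 under every alternative tried, from 0.65 (scaled by total reads, where the median of all arms was -0.36) to 1.16 (without control replicate 1). With each library left out, the range was 0.83 to 1.16 for miR-182, -2.22 to 0.44 for miR-183, -0.29 to 0.11 for miR-183* and -0.69 to 0.26 for miR-96, and the difference in the miR-183* share ranged from -0.12 to 0.80 percentage points. Under the 11 other alternatives miR-183 and miR-96 lay below 0, as did miR-183* under the 10 that gave it a value. Arms called numbered 0 to 3 with each library left out, 3 of 628 without the filter on low counts, and 6 of 310 with control replicate 1 harmonised and the replicate block; no member was among them under any alternative. The replicate block alone called 0 arms, with 29 at an unadjusted p of 0.05, and gave miR-182 a log2 fold change of 1.01 and miR-183 one of -0.99. Deviations of same-numbered libraries correlated at 0.568 over 310 arms, but with 2 pairs and no label on what the number marks they were not treated as paired. With mismatched reads left out, 98.8% of miR-182 reads in control replicate 1 began at base 1, and with single-count reads left out the share of reads at base 1 was 0% for miR-182 and miR-183 in both replicate 2 libraries. The miR-182 and miR-96 star arms, at 7 and 3 reads in all, were too shallow for a fold change.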
